A study of Drosophila melanogaster with 2 samples.

Results

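The translocon is the channel of the endoplasmic reticulum (ER) membrane through which newly made secretory and membrane proteins pass. Its 6 genes described here, out of 13968 protein-coding genes of the annotation, were chosen by name: Sec61alpha, Sec61beta, Sec61gamma, Sec63, TRAM and SsRbeta. Their promoters were examined for binding of Atf6 in a chromatin immunoprecipitation experiment with sequencing on whole Drosophila melanogaster embryos. There was 1 group, of 2 biological replicates. The embryos, aged 0 to 24 h, came from the strain Atf6-GFP, whose insertion makes an Atf6-eGFP fusion, that is, Atf6 tagged with an enhanced green fluorescent protein. The precipitating antibody was directed against this tag, although 1 label field names it Atf6. All samples carried the fusion, and the labels do not say which regulatory sequence drives it. Embryos were taken whole and without regard to sex, so many cell types were mixed, and strong binding in few cells cannot be told apart from weak binding in many.

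The alpha, beta and gamma subunits of Sec61 together form the protein-conducting channel, with the alpha subunit as the pore. Sec63 is a membrane protein with a J domain that brings the ER chaperone BiP to the channel, and TRAM and the signal sequence receptor, of which SsRbeta encodes the beta subunit, sit beside the channel and, in mammals, help particular chains to enter. Atf6 is a leucine zipper transcription factor of the ER membrane. In vertebrates it is cut during ER stress, and its freed part activates genes for ER folding and related functions.

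Peaks are described by a signal score given by the authors on an unstated scale, and by the irreproducible discovery rate (IDR), which is low where a region ranks high, and alike, in the pair of peak sets compared. The main list, made from both replicates, held 5846 peaks, each with an IDR of at most 0.01. A gene had a promoter peak where a summit of this list lay within 500 bp of any of its annotated transcription start sites (TSSs). Positions are given from the nearest TSS of the gene, which is position 0, and negative values lie upstream. Longer ranked lists, of 105892 regions for both replicates together, also hold regions that did not pass. The number of sequencing reads behind the lists is unknown.

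The sequences that the results turn on are shown first, from the reference genome in the direction of the gene, with capitals for the words named. TRAM carried the strongest peak of the 6 genes, and its line gives the summit at chrX:935340-935368, where no word was found. The Sec61alpha line gives the summit of its peak at chr2L:6480681-6480781, with 1 ACGT, the core shared by many leucine zipper sites. For SsRbeta, which had no promoter peak, the first line gives the summit of its best region at chr3L:16129295-16129395 with a pair of ACGT words. The second gives the start site at chr3L:16129532-16129631 with a match to the core of the vertebrate ATF6 site, here read on the opposite strand. The Sec63 line gives the 100 bases before the start site at chr3L:7360461-7360560 with the Dref site, a word of many fly core promoters. All coordinates are those of the dm6 build.
TRAM summit: ggccaacaaatcggcttcacagtgaaaag
Sec61alpha summit: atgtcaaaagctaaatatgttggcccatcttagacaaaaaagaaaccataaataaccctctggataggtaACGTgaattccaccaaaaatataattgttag
SsRbeta best region: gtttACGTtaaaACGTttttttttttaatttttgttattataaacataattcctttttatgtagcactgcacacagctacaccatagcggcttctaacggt
SsRbeta start site: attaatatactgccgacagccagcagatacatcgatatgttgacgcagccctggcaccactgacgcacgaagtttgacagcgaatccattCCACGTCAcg
Sec63 start site: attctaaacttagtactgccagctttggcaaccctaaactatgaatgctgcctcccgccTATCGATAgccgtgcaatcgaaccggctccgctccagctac

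Promoter peaks lay at TRAM, Sec61alpha and Sec61beta, and none of the main list lay at the promoters of Sec61gamma, Sec63 and SsRbeta. These 3 of 6 genes compare with 3019 of the 13968 protein-coding genes, or 21.6%. No test was made of this difference, because the genes were chosen with results of these data known. The 3 signals spanned a wide range, from 80.9 at Sec61beta through 188 at Sec61alpha to 849 at TRAM. Among the best promoter signals of all 3019 genes with a peak, whose median was 124 and whose upper quartile began at 211, TRAM ranked 64, Sec61alpha 896 and Sec61beta 2439. The genes of the channel proper were thus spread over both sides of the threshold: alpha and beta had a peak and gamma had none. All 6 genes had some ranked region at the promoter, with a median best signal of 73.1, against 45.1 over the 10545 genes that had one.

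**Figure D1:**
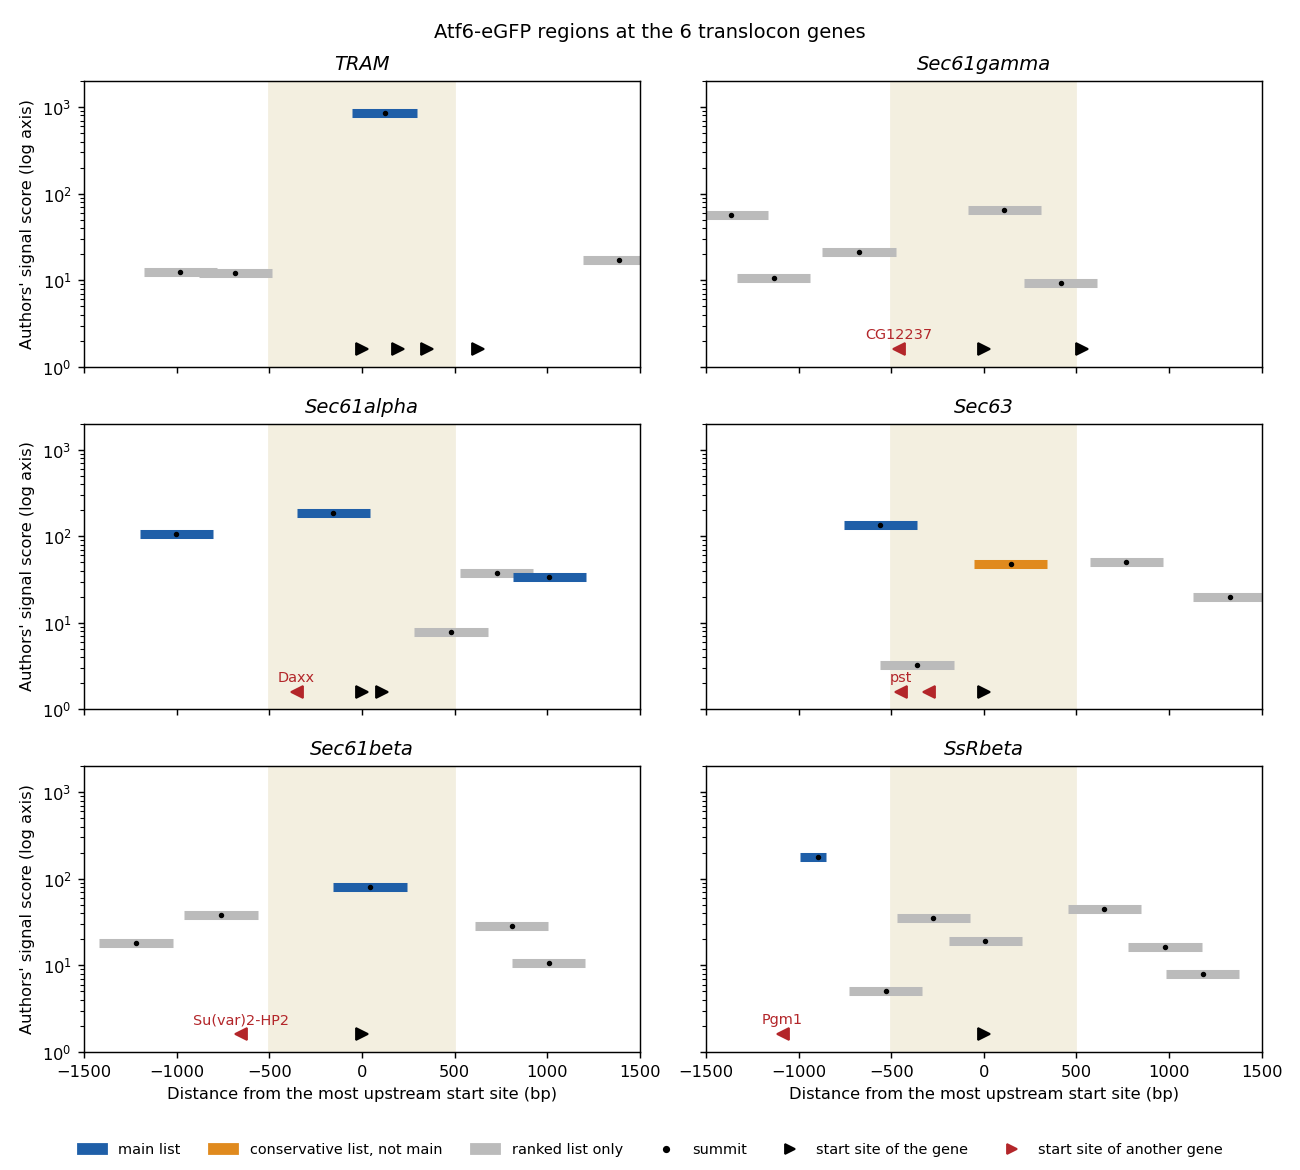
Regions at the 6 genes, with distance from the most upstream TSS in bp on the x axis (in the direction of the gene) and the authors' signal score on a log y axis; bars span the regions, dots mark summits, triangles mark start sites and the shaded band covers 500 bp on each side of the most upstream one. The TRAM peak of 849 stands alone over its start sites, while the summits of main-list peaks beside Sec63 (133) and SsRbeta (177) lie outside the band, which the bar at Sec63 enters.

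TRAM had by far the highest signal of the 6. Its peak (X, 935178 to 935528, signal 849) ranked 73 of 5846 in the main list. The signal was 493 in replicate 1 and 367 in replicate 2, each in the replicate's own list, where these ranked 60 of 4249 and 73 of 3424. Both replicates placed the summit within a few bases of each other, at -82 and -90 bp, and that of both together lay at -72 bp. The IDR was 1.00e-05, the lowest value the lists give. TRAM has 4 annotated TSSs, and the summit lay upstream of the second of these, from which 2 of the 5 transcripts start. It lay downstream of the first, so that it is also in the 5′ untranslated exon of 1 transcript. The gene lies in an intron of CG32815, and no other gene had a start site within 500 bp of this summit. In the ranked list of both replicates, the other regions with a summit within 1000 bp of a TRAM start site had signals of 11.6 to 17.0.

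Sec61alpha, the gene of the pore, had a promoter peak that it shared with a divergent neighbour. The peak (2L, 6480533 to 6480928) had a signal of 188, with 107 in replicate 1 and 71.4 in replicate 2, and was in both replicates' own lists. Its summit lay between the genes, at -156 bp from Sec61alpha and at -198 bp from Daxx, which encodes a Daxx-like protein, so it cannot be assigned to 1 of them by distance. Sharing of this kind was common: 1494 of the 3019 genes with a peak (49.5%) shared it with the promoter of another gene. The replicates placed the summit less exactly than at TRAM, at -184 and at -97 bp. A further main-list peak lay in an intron of Sec61alpha, with a signal of 34.1 and its summit 902 bp downstream of the nearest TSS. Within 1000 bp of a start site, neither replicate's own list held a summit there, and summits farther into the gene were not examined. Within that distance, the nearest ranked region of replicate 2 had its summit 711 bp downstream of that TSS, with an IDR of 0.0120. Another main-list peak, with a signal of 106, lay at -1003 bp, farther away than the start site of Daxx.

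Sec61beta had the weakest of the 3 promoter peaks (2R, 14618616 to 14619011, signal 80.9), which ranked 4092 of 5846. The summit lay at 43 bp, in the 5′ untranslated region, whereas 77.6% of the genes with a peak had their summit upstream of the TSS. The signal was 34.5 in replicate 1 and 46.3 in replicate 2. In replicate 1 the region had an IDR of 0.0117, just over the threshold, and in replicate 2 of 0.00451. Only the own list of replicate 2 therefore held it. Of all 3019 genes with a promoter peak, 1563 (51.8%) had it in both replicates' own lists. The summits of the replicates, at 44 and 39 bp, lay close together. The start site of Su(var)2-HP2, which encodes a partner of the heterochromatin protein HP1, lay at -653 bp on the other strand, beyond the window.

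Sec61gamma had no promoter peak in any list. In the ranked list of both replicates it had the highest signal of the 3 genes without a main-list peak, while in each replicate's own ranked list Sec63 lay above it. Its best promoter region (X, 19643240 to 19643635) had a signal of 65.3 and its summit at 111 bp, in the 5′ untranslated region. The IDR was 0.0655 in the ranked list that goes with the main list and 0.0193 in the one that goes with the conservative list. Replicate 1 gave a signal of 28.9 (IDR 0.715) and replicate 2 one of 32.4 (IDR 0.0412), neither of which passed. In each replicate Sec61gamma thus lay below Sec61beta. The gap of their signals in replicate 1 was smaller than the difference between the replicates at Sec61beta, and that in replicate 2 was larger. Whether the lists of the replicates share a scale is unknown. The start site of CG12237 lay at -458 bp on the other strand, and no main-list peak lay within Sec61gamma itself.

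At Sec63 the lists disagreed. A region over its start site (3L, 7360508 to 7360903, signal 47.9, summit at 145 bp) was absent from the main list, with an IDR of 0.471, and present in the conservative list, with an IDR of 0.00798. The own list of replicate 1 held a promoter summit at -6 bp with a signal of 37.8 (IDR 0.00405). In replicate 2 the best region had its summit at 160 bp, with a signal of 34.4 and an IDR of 0.0329, and did not pass. The replicates thus placed their summits on opposite sides of the TSS. The IDRs, which come from different ranked lists and are not repeated readings of the same comparison, fell on both sides of the threshold. Their signals, 37.8 and 34.4, come from lists without a known common scale. A second and much weaker region, with a signal of 3.13 at -367 bp, was in the own list of replicate 1 too. Of the 4884 conservative peaks, 541 were not in the main list under the same coordinates, and 175 genes had a promoter summit in the conservative list and none in the main list.

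A stronger peak stood next to Sec63, reaching into the window with its summit just beyond it. It had a signal of 133 (3L, 7359804 to 7360199) with its summit at -559 bp from Sec63. That summit lay 114 bp downstream of a start site of the divergent neighbour pst, which encodes pastrel, in its coding exon. Replicate 1 gave 56.5 and replicate 2 gave 82.8 at this peak, and both own lists held it. SsRbeta had a similar neighbour: a narrow peak with a signal of 177 (3L, 16128623 to 16128766) lay at -893 bp from SsRbeta and at -193 bp from Pgm1, which encodes phosphoglucomutase. By position it is a promoter peak of Pgm1. With a window of 1000 bp both peaks would count for the translocon genes. Then 5 of 6 would have one, against 25.4% of all protein-coding genes.

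SsRbeta itself had the lowest best signal of the 6 genes in the ranked list of both replicates and in that of replicate 2, but not in that of replicate 1, where Sec61gamma was lower. By signal the best ranked region (3L, 16129147 to 16129542) had 35.7 with its summit at -272 bp and an IDR of 0.608. By IDR the best in this list was another, over the TSS itself at 9 bp, with a signal of 19.3 and an IDR of 0.474. In the ranked list that goes with the conservative list the order was reversed. There the region at -272 bp had an IDR of 0.0510, which did not pass, and that at 9 bp one of 0.549. The replicates also differed in the place of the best region. The best region of replicate 1 lay at -418 bp with a signal of 30.4 (IDR 0.0316), and that of replicate 2 lay at -8 bp with 22.8 (IDR 0.0493). Neither passed in its own list.

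Set against the best promoter region of every other gene in the same ranked list, TRAM stood at percentile 99.5 in replicate 1 and 99.3 in replicate 2, and Sec61alpha at 91.2 and 88.3. Sec61beta stood at 67.6 and 77.8, Sec61gamma at 60.0 and 63.1, Sec63 at 70.6 and 66.1 and SsRbeta at 62.1 and 43.4. Between replicates, Sec61beta and Sec63 overlapped in these percentiles, as did Sec61gamma and SsRbeta. TRAM stood above Sec61alpha, and Sec61alpha above the other 4 genes, in both replicates. In the ranked list of both replicates together, Sec63 stood at percentile 53.3 and SsRbeta at 37.2, below their values in either replicate, and Sec61gamma at 68.2, above both. With 2 replicates, their difference is all that is known of the error, and no test was made between genes.

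**Figure D2:**
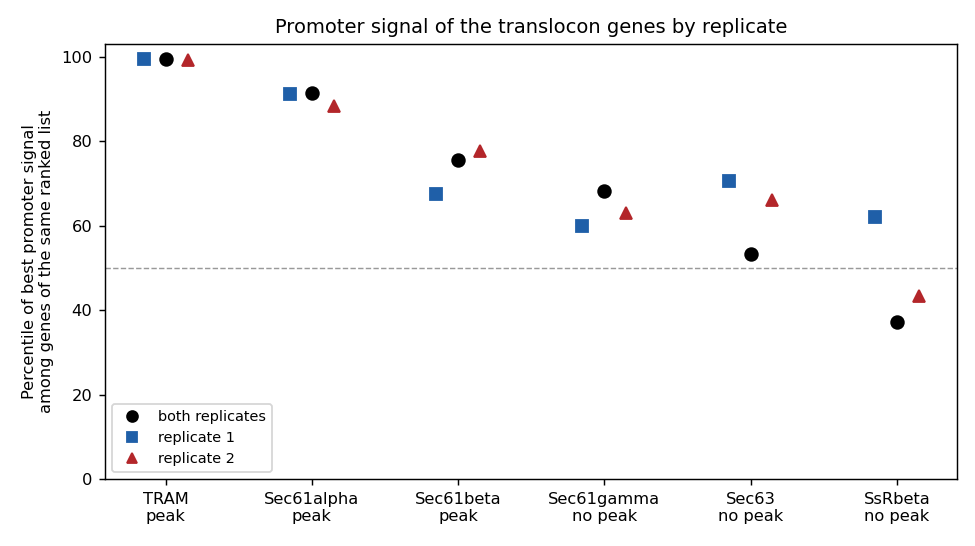
Percentile of the best promoter signal of each of the 6 genes among all protein-coding genes with a promoter region in the same ranked list (y axis, percent), for both replicates together (circles), replicate 1 (squares) and replicate 2 (triangles); the dashed line marks the middle of all genes. TRAM (99.5 and 99.3) and Sec61alpha (91.2 and 88.3) stand above the other genes in both replicates, and SsRbeta falls from 62.1 in replicate 1 to 43.4 in replicate 2.

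The count of genes with a promoter peak depended little on the list used, but its members changed. The conservative list gave 4 of 6, with Sec63 added, against 19.3% of all protein-coding genes. The own list of replicate 1 gave 3 of 6, namely TRAM, Sec61alpha and Sec63, against 16.7%. That of replicate 2 gave 3 of 6, namely TRAM, Sec61alpha and Sec61beta, against 14.2%. TRAM and Sec61alpha therefore had a promoter peak in all 4 lists, and Sec61gamma and SsRbeta in none of them.

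The word TGACGTGG, the core of the vertebrate ATF6 site, lay at the start site of a pair of the 6 genes. At Sec61beta it covered 2 to 9 bp downstream of the TSS on the strand of the gene (2R, 14618773 to 14618780), 34 bp from the summit of the peak. At SsRbeta it covered 5 to 12 bp downstream of the TSS on the opposite strand (3L, 16129622 to 16129629). Searched on both strands from 250 bases before to 50 after each TSS, the word occurred at 72 of the 13968 genes (0.515%) and at 76 of 19630 start sites (0.387%). Only the first of the pair had a main-list promoter peak. Over all genes with the word, 19 of 72 had a promoter peak (26.4%), near the 21.6% of all genes. Within 50 bp of a summit the word occurred at 5 of the 5846 main-list peaks (0.0855%), that of Sec61beta among them. A match describes the sequence and does not show that Atf6 binds there.

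The shorter words inside that core were common. ACGT, which reads the same on both strands and is part of TGACGTGG, lay within 50 bp of the summit at Sec61alpha and Sec61beta and not at TRAM, and at 17.0% of all main-list summits. Sec61beta held 3 copies, the middle one at the summit base itself. Around the start sites ACGT occurred at all 6 genes, against 54.8% of all protein-coding genes. By window, it occurred in 8 of their 11 and in 48.8% of all. Windows of the same gene can overlap, so they are not independent. The later TSS of Sec61alpha had 4 copies, at -245, -51, -22 and -16 bp by their first base. CCACG overlaps TGACGTGG on its opposite strand and is the end of the ER stress element. It occurred at Sec61beta, Sec61gamma, SsRbeta and TRAM, and at 28.8% of all protein-coding genes. By window, it occurred in 6 of the 11, against 23.6% of all windows, and the TRAM windows with it held the same site. The complete ER stress element, its second form, the cyclic AMP response element TGACGTCA and the E-box CACGTG occurred at none of the 11.

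Core promoter words differed between the genes. Sec61alpha held the M1BP site GGTCACAC, a word of fly housekeeping promoters, between its start sites, 17 to 24 bp downstream of the first, in the opposite direction (2L, 6480551 to 6480558). It occurred in 6.71% of all start site windows. Sec63 held the Dref site TATCGATA at -41 to -34 bp (7.98% of windows) and TATAAAA at -231 to -225 bp (21.6% of windows). None of these 3 words lay within 50 bp of the summits of the 3 promoter peaks. The 101 bases around the summit were 42.6% G or C at TRAM, 32.7% at Sec61alpha and 48.5% at Sec61beta, against a median of 35.6% over all main-list summits.

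**Figure D3:**
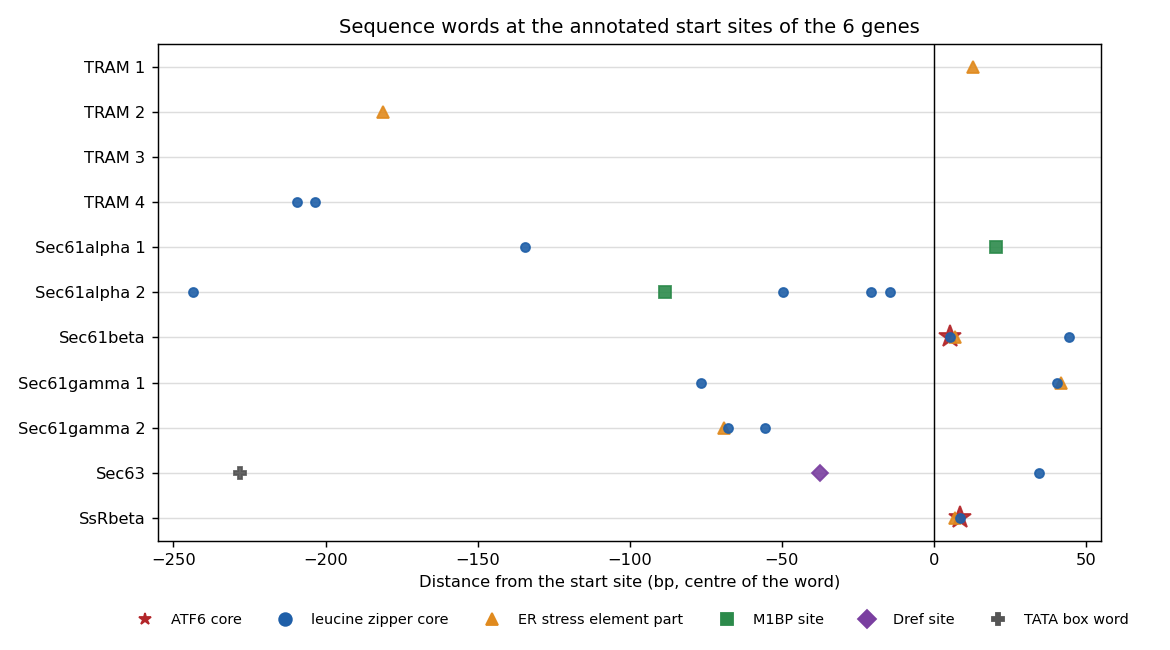
Positions of sequence words around the 11 annotated start sites of the 6 genes (rows; numbered from the most upstream site where a gene has several), with distance from the start site in bp on the x axis. The ATF6 core (stars) lies just downstream of the start sites of Sec61beta and SsRbeta, and the leucine zipper core (circles) occurs at all 6 genes.

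Other genes for entry into the ER were set beside the translocon genes by lists of known function. Of 24 genes in 4 lists, 7 had a main-list promoter peak (29.2%), against 21.6% of all protein-coding genes. The median best ranked signal of these lists was 58.8, against 45.1 over all genes with a ranked promoter region. The highest signal was that of Trp1, the fly gene of Sec62, which works with Sec63: 528 (2L, 10010089 to 10010343), with 307 in replicate 1 and 214 in replicate 2. Thus Sec62 had a strong promoter peak, while Sec63 itself passed in the conservative list and that of replicate 1 alone. Tapdelta, which encodes the delta subunit of the complex that SsRbeta belongs to, had a peak of 71.6 with its summit at 21 bp. Like that of Sec61beta, it was in the own list of replicate 2 and not in that of replicate 1.

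The signal recognition particle brings ribosomes with a signal sequence to the translocon. Against 21.6% of all protein-coding genes, it and its receptor had peaks at 3 of 8 genes (37.5%). These were Srp14 (174), Srp19 (128) and Srp72 (97.6), and each of the 3 peaks also lay at a divergent neighbour, EloB, qm and Septin2. Only that of Srp19 was in both replicates' own lists, which held for 51.8% of all genes with a promoter peak. Neither receptor gene had a peak, and their best signals were 21.9 at SrpRalpha (percentile 15.9) and 50.3 at SrpRbeta (percentile 56.1). Of the signal peptidase genes, whose products cut off the signal sequence, 0 of 4 had a main-list peak, with best signals of 7.42 at Spase12, 11.0 at Spase25, 64.0 at twr and 64.1 at Spase22-23. The ER membrane complex, which inserts membrane segments beside Sec61, had peaks at 2 of 10 genes (20.0%), EMC6 (366) and EMC3 (74.4). This share was near that of all protein-coding genes. Both peaks also lay at another gene, Hr96 and Dpy-30L1, and that of EMC3 was not in the own list of replicate 2.

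Downstream of entry, the oligosaccharyl transferase, which attaches sugar chains to proteins as they leave the channel, had promoter peaks at 3 of 6 genes: Stt3A (579), Dad1 (354) and Stt3B (124). The Stt3A summit lay at -421 bp from that gene and nearer to bves, at -188 bp. The peaks of Dad1 and Stt3B also lay at another gene, CG13384 and CG11839, and that of Stt3B was not in the own list of replicate 2. ER chaperone genes had 5 of 13 (38.5%), against the same 21.6% of all protein-coding genes. They were led by Fkbp14 (1279) and prtp (280), the latter just inside the window at -498 bp. Cnx99A (171), Gp93 (124) and ERp60 (83.6) followed. The peaks of Gp93 and ERp60 were not in the own list of replicate 2, and that of ERp60 also lay at eEF1alpha1. Calr, the gene of the chaperone calreticulin, was not counted, since its promoter region (signal 96.2, IDR 0.00149) met the threshold in the ranked list but was not in the main list. The same held for 165 ranked regions in all, at the promoters of 84 protein-coding genes and of none of the 6 translocon genes. The median best ranked signal was 73.1 for the translocon genes, 91.1 for the transferase and 89.9 for the chaperones. Each of these lists held genes with high signals beside genes with none that passed, and no difference between the lists was tested. Of all 49 genes in these 7 lists, Fkbp14 alone had a higher signal than TRAM.

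**Figure D4:**
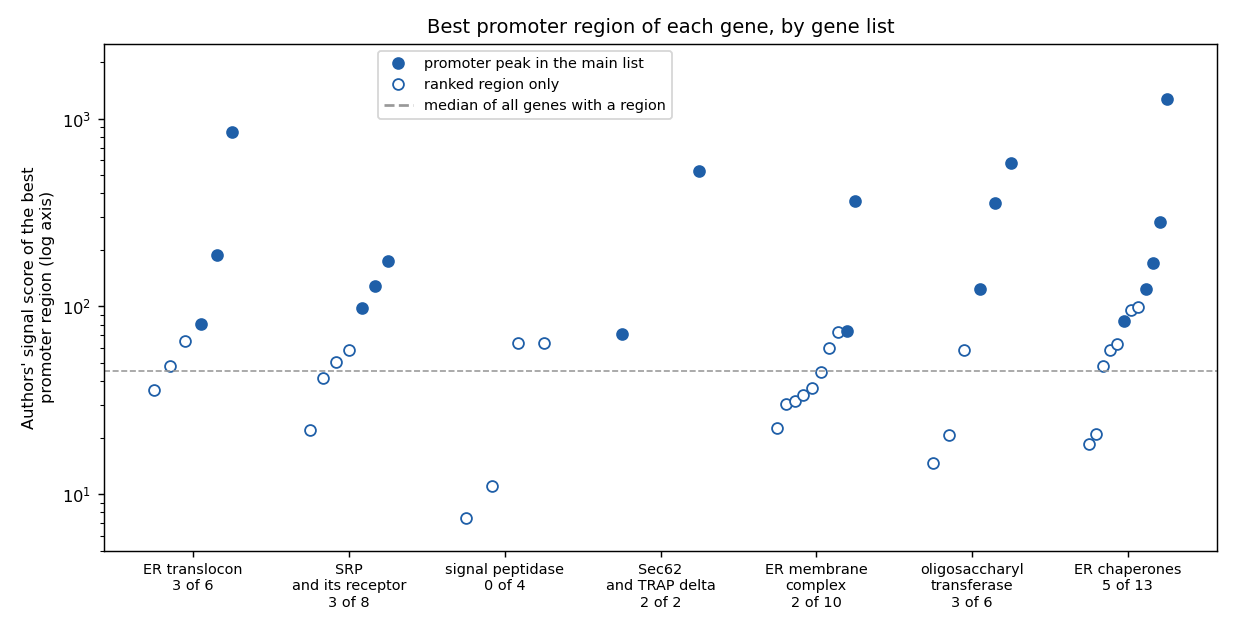
Authors' signal score (log y axis) of the best promoter region of each gene, by gene list; filled points have a main-list promoter peak, open points have a ranked region only, the counts under the names give genes with a peak of all genes in the list, and the dashed line is the median of all genes with a region (45.1). Genes without a ranked promoter region have no point; TRAM (849) is the highest of the translocon genes and Fkbp14 (1279) the highest of all.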

How the data were processed

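The data were peak lists of 2 biological replicates, on dm6 per the labels. The authors deposited lists ranked by reproducibility and lists that passed an IDR of 0.01. Their signal is a score of unstated scale, as deposited by the authors. Ranks and percentiles were taken within a list. Where signals of the replicates were set side by side, a common scale of their lists is not known. IDRs came from the deposited −log10 column. No aligner, peak caller or read count is given in the sources used here. The fragment size range is given as 200 to 800 without a unit. A control library was not used here. Intervals for counting error could not be given.

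Summits were placed against start sites of the Ensembl release 115 annotation. All 49 genes of 7 lists matched by symbol. The 2 replicate columns of the conservative ranked list bear no replicate number, and at all 6 translocon genes they held the best signals of replicates 1 and 2 in their own ranked lists. Values called replicate 1 or 2 come from those own lists. Sequences came from the RefSeq copy of the assembly, and 10 words were searched on both strands, without regard to overlap between words. A percentile is that of a gene's best promoter signal among all genes with a promoter region in the same ranked list. Placement and word search were tested on simulated data. Python 3.11.15 with numpy 2.4.6 and pandas 2.3.3 was used. The text names all 6 translocon genes and, from each of the other lists, up to 5 genes with a promoter peak, by signal. The genes named without a peak there, among them both receptor genes and the signal peptidase genes, were chosen after their values were seen. The 6 genes and all lists were chosen with earlier results of these data known. Alternatives changed the window, the list, the peaks or the start sites used.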

Additional observations from a re-analysis of the deposited data

How the results depend on the processing

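The 3 of 6 translocon genes with a promoter peak became 5 with a window of 1000 bp, which takes in the peaks next to Sec63 and SsRbeta, when 25.4% of all genes had one. The count was 3 with 250 bp (17.7% of all genes), 4 in the conservative list (19.3%) or when any overlap of 1 bp sufficed (23.3%), 2 with the stronger 50% of peaks (13.6%), and 3 with the most upstream start site alone (19.1%). Without replicate 1 or without replicate 2 it was 3 (14.2% and 16.7%), but Sec63 took the place of Sec61beta when replicate 2 was left out. Leaving out a replicate gave 1 to 3 genes for the signal recognition particle and its receptor, 0 to 1 for signal peptidase, 1 to 2 for Sec62 and TRAP delta, and 1 to 2 for the ER membrane complex. With the stronger peaks alone, Sec62 and TRAP delta gave 1 and the ER membrane complex gave 1. With the most upstream start site, Sec62 and TRAP delta gave 1. Of 56 list counts, 48 stayed within 1.5 times the reported one. Of 24 percentiles, 11 moved by more than 1 SD of the 2 replicates, which is less than their difference, such as that of SsRbeta, which was 16.6 with 250 bp and 89.8 with 1000 bp. No paired analysis was possible because there was only 1 group. Read depth is unknown, so no limit from it could be given.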
